A study of Homo sapiens with 27 samples.

Results

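The comparison set the 6 arrays taken at 4 and 6 h against the 3 arrays taken at 0 h, 9 of the 27 arrays of the series. Members were chosen by their labelled time and treatment alone. The cells were MDA-MB-231, an established mesenchymal breast cancer line, kept in DMEM with 10% serum. At each time there was 1 array of cells given DMSO, the vehicle, 1 of cells given 5SGlcNAc at 50 µM and 1 of cells given Thiamet-G at 25 µM, so each treatment forms a series with its own 0 h array. 5SGlcNAc inhibits OGT, the enzyme that puts a single sugar, O-GlcNAc, on intracellular proteins, and Thiamet-G inhibits OGA, the enzyme that takes it off. Affymetrix arrays of 22277 probe sets gave log2 expression levels, so a difference of 1 is a 2-fold change.

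The 3 series stood in for replicates, because no time has more than 1 array per treatment. Their spread therefore includes whatever the inhibitors did. Nothing says that the arrays came from separate cultures, so the p-values reflect only how these samples differ among themselves, which may be technical. By their labels the later arrays had more hours with vehicle or inhibitor, and in the dish, than those of 0 h. Time, handling and vehicle cannot be told apart here. A gene is said to have risen or fallen where its adjusted p, from limma with Benjamini-Hochberg adjustment over 11963 genes, was under 0.05. Values of a gene are given in the order DMSO, 5SGlcNAc, Thiamet-G throughout.

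Cultured cells that are moved, fed or given a new compound are known to answer in waves. Immediate early genes such as FOS and EGR1, which encode transcription factors, come first and need no new protein. Interferon-stimulated genes, which encode antiviral proteins, and stress chaperones are later waves, the former through the factors STAT and IRF at a promoter element called the ISRE, the latter through HSF1 at the heat shock element. In MDA-MB-231 cells the ERK pathway is active at rest through mutant RAS and RAF genes.

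At 4 and 6 h a small set of genes, many of them of these kinds, was far above 0 h. Of 11963 genes, 557 were called, 261 higher (2.18%) and 296 lower (2.47%). These shares are the background for every list count at 4 and 6 h together below, and no list was tested as a set. Only 11 of the higher and 2 of the lower genes changed over 2-fold, though 2140 genes had an unadjusted limma p under 0.05. The median change of all genes was 0.010, a value that normalizing the arrays together holds near 0. In RNA of whole cultures a change in how many cells express a gene and one in RNA per cell cannot be told apart. The 12 largest rises were IFIT1, HSPA6, OASL, IFIT2, ATF3, EGR1, IFIT3, IFIH1, FOS, IL11, CH25H and ID4. The 12 largest falls were NDP, HAS2, SLC14A1, ST6GALNAC5, GDF15, DEPP1, COL15A1, OTUB2, RPGRIP1L, HS3ST1, RAD52 and FGF5. In all 24 of these genes the levels of the 6 later arrays and of the 3 arrays of 0 h did not overlap, which their choice by size and shared sign largely fixes. Over all 11963 genes, 1277 (10.7%) showed no overlap, more than were called. A lack of overlap named for a gene below is to be read beside that share. The number of genes called rests on single arrays. It was 107 without the DMSO array of 0 h, 198 without that of 5SGlcNAc, 306 without that of Thiamet-G, 348 without the 5SGlcNAc array of 4 h and 369 without the DMSO array of 6 h. With only the 9 arrays in the fit it was 416.

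The 9 arrays were alike as wholes, with pairwise correlations of 0.996 to 0.999 and medians of 7.48 to 7.53. The 3' minus 5' signal of ACTB, which grows as RNA breaks, stood at 0.81, 0.72 and 0.59 at 0 h, at 1.64, 0.89 and 1.24 at 4 h and at 0.42, 0.61 and 0.47 at 6 h. By this control the DMSO and Thiamet-G arrays of 4 h were the poorest. The same signal of GAPDH did not set them apart. It was 0.21, 0.18 and 0.23 at 0 h, 0.23, 0.14 and 0.23 at 4 h and 0.19, 0.17 and 0.17 at 6 h. Arrays called poorer below are so named by ACTB alone. Without both, 185 genes were called, and with the ACTB value as a covariate, 365. Of 9 markers of the line none was called at 4 and 6 h together. VIM, the mesenchymal intermediate filament, stood at 14.86, 14.86 and 14.89 at 0 h, but the listed marker SPARC, a matrix protein, had a mean of only 4.60. ESR1 and PGR, the hormone receptors this line lacks, stood at 6.90 to 7.20 and at 3.92 to 4.22 at 0 h. None of 7 haematopoietic, 10 fibroblast or 6 endothelium markers was called. Their mean levels ranged over 5.85 to 5.89, 6.15 to 6.23 and 5.60 to 5.69 at 0 h, and over 5.85 to 5.99, 6.12 to 6.31 and 5.61 to 5.71 at 4 and 6 h.

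IFIT1 rose most of all genes, HSPA6 came second, and ATF3 was the largest rise among transcription factors. The 250 bases before the first listed start of each, and of SLC14A1 as a gene that fell, are shown from RefSeq (build GRCh38.p14) to let the known elements be seen. They lie at chr10:89392373-89392622, chr1:161524290-161524539, chr1:212565157-212565406 and chr18:45723931-45724180, all on the plus strand, and each ends at the base before the start. Capitals mark matches, on either strand, to the motifs searched.
IFIT1: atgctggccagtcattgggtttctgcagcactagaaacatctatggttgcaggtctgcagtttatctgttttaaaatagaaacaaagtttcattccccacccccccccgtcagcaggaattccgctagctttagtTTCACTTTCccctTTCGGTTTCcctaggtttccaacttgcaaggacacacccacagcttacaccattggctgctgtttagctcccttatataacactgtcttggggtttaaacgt
HSPA6: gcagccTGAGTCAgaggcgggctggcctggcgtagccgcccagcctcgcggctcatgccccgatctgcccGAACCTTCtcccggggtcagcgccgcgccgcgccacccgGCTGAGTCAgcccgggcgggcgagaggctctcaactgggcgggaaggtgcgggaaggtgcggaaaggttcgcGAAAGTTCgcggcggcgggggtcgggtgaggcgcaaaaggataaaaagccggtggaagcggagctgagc
ATF3: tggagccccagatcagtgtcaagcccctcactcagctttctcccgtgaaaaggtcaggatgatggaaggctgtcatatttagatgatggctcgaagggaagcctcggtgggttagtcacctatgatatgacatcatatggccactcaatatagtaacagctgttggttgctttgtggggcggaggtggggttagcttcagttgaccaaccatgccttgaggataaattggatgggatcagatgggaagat
SLC14A1: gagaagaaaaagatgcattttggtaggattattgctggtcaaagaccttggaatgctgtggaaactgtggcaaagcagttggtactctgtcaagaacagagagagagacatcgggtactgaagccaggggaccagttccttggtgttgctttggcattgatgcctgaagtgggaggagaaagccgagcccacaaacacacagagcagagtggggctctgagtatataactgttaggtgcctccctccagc
The capitals of IFIT1 are 2 matches to the ISRE core GAAANNGAA. Those of HSPA6 are 2 matches to the heat shock core GAANNTTC and 2 to the AP-1 site TGANTCA, of which the second overlaps a match to the antioxidant response element TGACNNNGC. ATF3 and SLC14A1 hold no match in this window.

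Promoters were found for 10 of the 12 rises and 10 of the 12 falls. Only the first listed promoter of each gene was searched, so any other start of a gene was not looked at. The shares of all promoters count every entry. Among the rises, IFIT1, IFIT3 and IFIH1 held the ISRE core (3 of 10, against 6.88% of 35116 RefSeq promoters of the same length), with 4 matches in IFIH1. All but 1 of those 4 lie in a single overlapping run, 164 to 144 bases before the start. EGR1 was the single rise with a CArG box, the element bound by SRF, within this window (1.16% of promoters), and had 2. HSPA6 and IL11 held the AP-1 site (6.57%). HSPA6 alone among the rises held the heat shock core (5.78%) and the antioxidant response element (10.9%). No rise held the cyclic AMP element TGACGTCA (1.65%) or the E-box CACGTG (6.34%). Among the falls, OTUB2 held the E-box, and DEPP1 and ST6GALNAC5 the heat shock core. The ISRE and heat shock cores were added to the search after the values were seen. A match describes the letters and shows no binding.

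The largest rise was that of an interferon-stimulated gene. IFIT1, an antiviral protein that binds RNA lacking the host cap mark, stood at 8.12, 8.15 and 8.09 at 0 h, at 10.54, 10.35 and 9.29 at 4 h and at 10.17, 10.86 and 10.28 at 6 h. Every later array was above every array of 0 h, and at 4 h the Thiamet-G array was the lowest. The mean rise was 2.13 ± 0.22 (SE), or 4.37-fold (limma, adjusted p = 0.000295). OASL, a relative of the enzymes that make the RNase L activator, went from 7.28 to 7.29 at 0 h to 9.39, 8.98 and 8.17 at 4 h and 8.69, 9.56 and 8.89 at 6 h, a rise of 1.66 ± 0.20 (adjusted p = 0.000658). Its other probe set changed by 1.28, in the same direction. In both genes the groups of arrays did not overlap.

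The other IFIT genes, neighbours of IFIT1 on chromosome 10, rose as well. IFIT2 stood at 7.63, 7.69 and 7.84 at 0 h, at 9.60, 9.40 and 8.55 at 4 h and at 8.89, 9.52 and 8.81 at 6 h, and rose by 1.41 ± 0.19 (adjusted p = 0.00113). IFIT3 stood at 9.32, 9.33 and 9.45, then at 10.99, 10.79 and 9.89, then at 10.26, 10.93 and 10.46, and rose by 1.18 ± 0.19 (adjusted p = 0.00330). In both, the groups of arrays did not overlap and the Thiamet-G array of 4 h was the lowest of the later ones. IFIH1, the sensor MDA5 of long double-stranded RNA, rose by 1.14 ± 0.21 (adjusted p = 0.00655), from 6.28 to 6.32 at 0 h to 7.85, 7.51 and 6.74 at 4 h and 7.23, 7.94 and 7.39 at 6 h. Without the DMSO array of 0 h its adjusted p was 0.0599, and its second probe set changed by 0.21. IFI44, an interferon-induced cytoplasmic protein, rose by 0.72 ± 0.092 (adjusted p = 0.000839), and its second probe set changed by 0.94.

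Of 26 measured members of the interferon list, 6 rose and none fell at 4 and 6 h together, beside 2.18% and 2.47% of all genes. The median change was 0.06 beside 0.010 for all genes. The called members were IFIT1, IFIT2, IFIT3, IFIH1, IFI44 and ISG15, a ubiquitin-like modifier that rose by 0.57 ± 0.13 (adjusted p = 0.0194). ISG15 lost the call without the array of 0 h from DMSO (adjusted p = 0.0985), 5SGlcNAc (0.106) or Thiamet-G (0.0594). The count of rises was 6 without both poorer arrays of 4 h, 5 with the ACTB covariate, and 4 (without the DMSO array of 0 h) to 7 over the fits that each left out 1 of the 9 arrays. Several textbook members were not called. MX1, a GTPase that blocks viruses, changed by 0.18 ± 0.083 (adjusted p = 0.282), OAS1 by 0.07 (0.768) and IRF7, the regulator of interferon genes, by 0.07 (0.825). IFNB1, the gene of interferon beta itself, was read after these values were seen. It stood at 4.71 to 4.89 at 0 h and at 4.67 to 5.07 at 4 and 6 h, a change of 0.04 ± 0.13 (adjusted p = 0.917).

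IFIT1, OASL, IFIT2, IFIT3 and IFIH1 had their largest mean change at 4 or 6 h. IFIT1 was 0.47 above 0 h at 2 h, 1.94 at 4 h, 2.32 at 6 h, 1.50 at 8 h and 1.27 at 24 h. For IFIT2 the same means were 0.29, 1.47, 1.36, 0.37 and 0.31. OASL was 0.39 above 0 h at 2 h and 0.65 above at 24 h. The test of 6 h against 4 h called none of the 12 largest rises and none of the 12 largest falls.

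**Figure D1:**
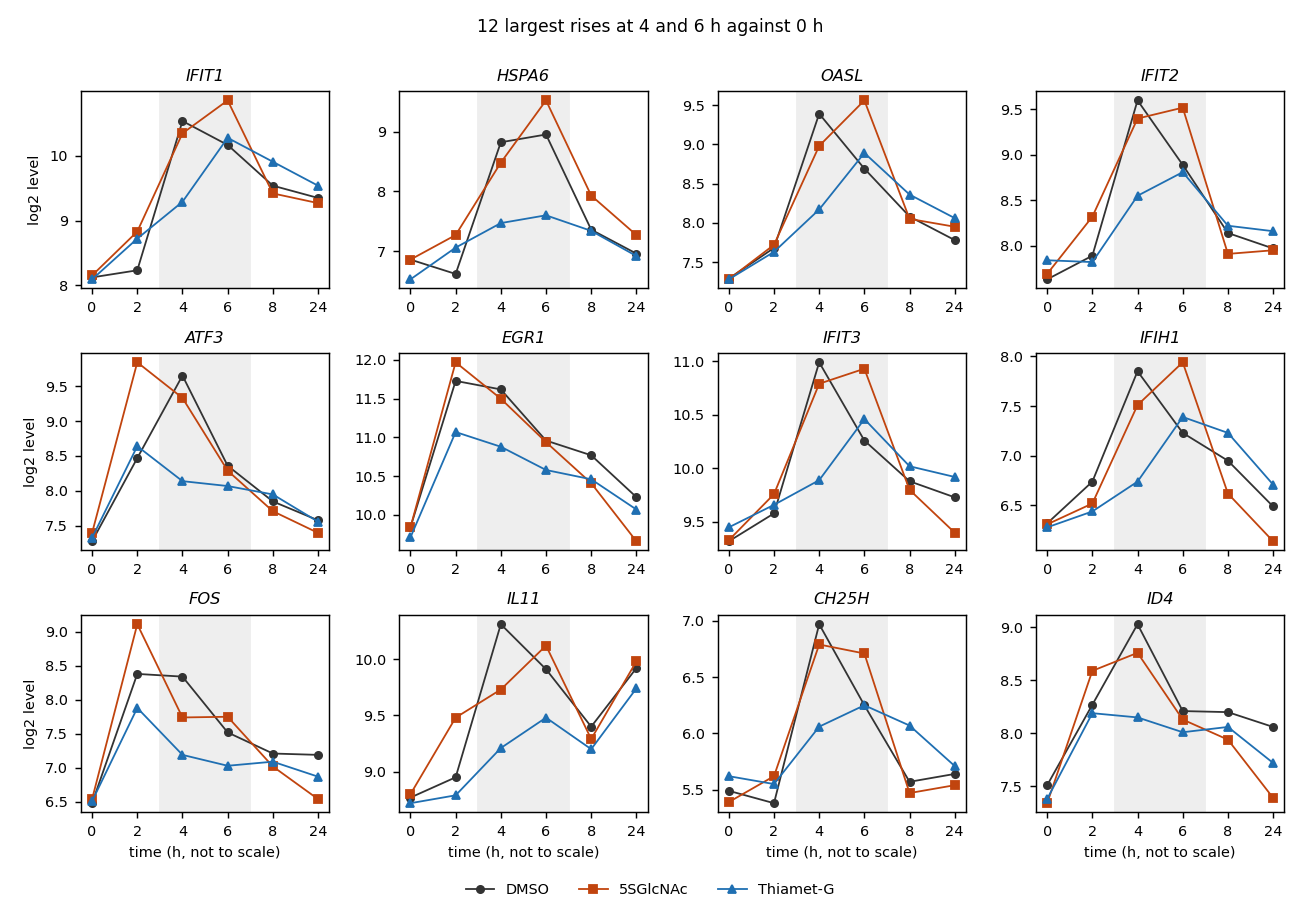
Log2 levels of the 12 largest rises at 0, 2, 4, 6, 8 and 24 h, 1 point per array and 1 line per treatment series, with 4 and 6 h shaded. IFIT1, OASL, IFIT2, IFIT3 and IFIH1 peak inside the shaded times, while EGR1 and FOS are highest on average at 2 h.

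Some immediate early genes were higher at 4 and 6 h than at 0 h. EGR1, a zinc finger factor, stood at 9.84, 9.84 and 9.71 at 0 h, at 11.62, 11.50 and 10.88 at 4 h and at 10.96, 10.94 and 10.58 at 6 h. The rise was 1.28 ± 0.15, or 2.43-fold (adjusted p = 0.000600), and the second probe set changed by 0.99. No later array overlapped 0 h. Its mean was 1.79 above 0 h at 2 h, 1.54 at 4 h, 1.03 at 6 h, 0.75 at 8 h and 0.19 at 24 h. The test of 6 h against 4 h called neither EGR1 (adjusted p = 0.190) nor FOS (0.564) nor ATF3 (0.246).

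FOS, a subunit of AP-1, stood at 6.48, 6.54 and 6.51 at 0 h, at 8.34, 7.74 and 7.19 at 4 h and at 7.52, 7.75 and 7.03 at 6 h, a rise of 1.08 ± 0.21 (adjusted p = 0.00973). ATF3, a stress-induced repressor, stood at 7.28, 7.40 and 7.33, then at 9.65, 9.33 and 8.14, then at 8.36, 8.29 and 8.07, a rise of 1.30 ± 0.26 (adjusted p = 0.0115). For both genes the lowest later levels were those of Thiamet-G and no later array reached down to 0 h. Without the DMSO array of 0 h the adjusted p was 0.0985 for FOS and 0.0932 for ATF3, and without the 5SGlcNAc array of 0 h it was 0.0612 and 0.0714. FOS also missed the threshold without both poorer arrays of 4 h (adjusted p = 0.0514). FOSB, another AP-1 subunit, was 1.30 above 0 h at 4 h (adjusted p = 0.0275) and 0.50 at 6 h (0.420). FOSB kept its 4 h call in 4 of the 9 fits that each left out 1 array and lost it without any 1 array of 0 h or without the DMSO or 5SGlcNAc array of 4 h (adjusted p of 0.0602 to 0.124).

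Of 27 measured members of the immediate early list, 6 rose and 1 fell, beside 2.18% and 2.47% of all genes, with a median of 0.11. The rises were EGR1, ATF3, FOS, EGR3, ZFP36 and MAFF. EGR3, a relative of EGR1, rose by 0.48 (adjusted p = 0.0310), ZFP36, which destabilises cytokine messengers, by 0.35 (0.0213) and MAFF, a small MAF factor, by 0.23 (0.0282). EGR3 was dim, with a mean of 4.66 at 0 h. FOSL2, an AP-1 subunit, fell by 0.31. In JUN, the usual partner of FOS, the change was 0.13 ± 0.053 (adjusted p = 0.211), and in MYC it was -0.12 (0.276). The calls of EGR3, ZFP36, MAFF and FOSL2 were each lost without any of at least 4 of the 9 arrays, among them the DMSO and 5SGlcNAc arrays of 0 h (adjusted p of 0.221 and 0.115 for EGR3, 0.114 and 0.108 for ZFP36, 0.0660 and 0.0998 for MAFF, 0.153 and 0.165 for FOSL2). The number of rises was 1 without the DMSO or the 5SGlcNAc array of 0 h and 3 without the DMSO array of 4 h. Without both poorer arrays of 4 h, 3 of the list rose and none fell. With the ACTB covariate 4 rose and 1 fell.

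RGS2, a brake on G protein signalling that is induced by many stimuli, rose by 0.91 ± 0.13 (adjusted p = 0.00157). Its levels were 8.31, 8.06 and 8.10 at 0 h, 9.54, 9.12 and 8.66 at 4 h and 9.10, 9.27 and 8.73 at 6 h. RRAD, a small GTPase, was 0.83 above 0 h at 4 h (adjusted p = 0.0487) and 0.26 at 6 h (0.592). The 4 h difference of RRAD was 1.32 and 1.14 with DMSO and 5SGlcNAc and 0.03 with Thiamet-G. Its call was lost in 7 of the 9 fits that each left out 1 array, all but those without the Thiamet-G arrays of 0 h and 4 h (adjusted p of 0.0589 to 0.232). In the ERK feedback list, genes that report the pathway's output, 1 of 15 fell and none rose, with a median of -0.04. SPRY2, an inhibitor of receptor kinase signalling, was the 1 that fell, by 0.29 ± 0.060 (adjusted p = 0.0125), but not without the DMSO or 5SGlcNAc array of 0 h (0.138 and 0.0820). DUSP6, the ERK phosphatase, changed by -0.01 (adjusted p = 0.955).

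One chaperone stood apart from the rest of the heat shock genes. HSPA6, an HSP70 that is scarce in unstressed cells, stood at 6.86, 6.86 and 6.53 at 0 h, at 8.82, 8.48 and 7.47 at 4 h and at 8.95, 9.52 and 7.60 at 6 h. The rise was 1.72 ± 0.25, or 3.30-fold (adjusted p = 0.00158), and its other probe set changed by 1.11. Every later array was above 0 h, the Thiamet-G arrays by the least. It was 0.23 above 0 h at 2 h and 0.30 above at 24 h. In the list of 16 heat shock chaperones, which does not hold HSPA6, 1 rose and none fell, with a median of 0.00. The 1 was DNAJB1, a co-chaperone of HSP70, by 0.32 ± 0.067 (adjusted p = 0.0156). DNAJB1 lost the call without the DMSO or 5SGlcNAc array of 0 h (adjusted p = 0.114 and 0.101). HSP90AA1, the inducible HSP90, stood at 14.57 to 14.60 at 0 h and 14.55 to 14.61 later. The chaperone HSPH1 changed by -0.09 (adjusted p = 0.628). HERPUD1, part of the degradation machinery of the endoplasmic reticulum, rose by 0.40 ± 0.059 (adjusted p = 0.00159), the single call among 17 genes of the unfolded protein response. HSPA5, the main chaperone of that compartment, changed by 0.09 (adjusted p = 0.260).

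The other large rises were those of IL11, CH25H and ID4. IL11, a cytokine of the IL6 family, stood at 8.77, 8.80 and 8.72 at 0 h, at 10.31, 9.73 and 9.21 at 4 h and at 9.91, 10.12 and 9.48 at 6 h, a rise of 1.03 ± 0.15 (adjusted p = 0.00139). Its second probe set changed by 0.21. Unlike the other 11 largest rises, IL11 had its largest mean at 24 h, at 1.12 above 0 h. In the list of NF-kB targets and cytokines, IL11 was the only rise among 21, TRAF1, an adaptor of TNF receptors, fell by 0.36 ± 0.060 (adjusted p = 0.00372), and the median was -0.02.

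CH25H, which makes the antiviral sterol 25-hydroxycholesterol, stood at 5.49, 5.39 and 5.62 at 0 h, at 6.97, 6.79 and 6.06 at 4 h and at 6.25, 6.71 and 6.25 at 6 h, a rise of 1.01 ± 0.18 (adjusted p = 0.00471). Its levels were dim beside array medians of 7.48 to 7.53. GCH1, the first enzyme of tetrahydrobiopterin synthesis, had the smallest adjusted p of all named genes. It went from 9.32, 9.22 and 9.18 to 10.11, 10.01 and 9.75 at 4 h and 10.24, 10.30 and 9.96 at 6 h, a rise of 0.82 ± 0.061 (adjusted p = 1.19e-05), and no later array overlapped 0 h. At 8 h GCH1 was still 0.90 above 0 h.

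ID4, a dominant negative partner of helix-loop-helix factors, stood at 7.51, 7.34 and 7.38 at 0 h, at 9.03, 8.76 and 8.15 at 4 h and at 8.21, 8.13 and 8.01 at 6 h. It rose by 0.98 ± 0.14 (adjusted p = 0.00130), and its other probe sets changed by 0.35 and 0.56. In the list of ID genes and BMP feedback, 3 of 19 rose, 1 fell and the median was -0.03. BAMBI, a decoy receptor of BMP and TGF-beta, rose by 0.53 ± 0.074 (adjusted p = 0.00124) and ID2 by 0.45 ± 0.084 (0.00697). ID2 missed the threshold without the DMSO or 5SGlcNAc array of 0 h (adjusted p = 0.0561 and 0.0569). ID1, usually the most BMP-responsive of the family, changed by -0.03 (adjusted p = 0.865) and ID3 by -0.18 (0.261). BMP4, the ligand, was the member that fell, by 0.23 ± 0.059 (adjusted p = 0.0371). That call was kept in 2 of the 9 fits that each left out 1 array, and its adjusted p was 0.297 without the DMSO array of 0 h.

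NDP and HAS2 gave the largest falls. The levels of NDP, and of SLC14A1, ST6GALNAC5 and COL15A1 below, were dim beside array medians of 7.48 to 7.53. NDP, the secreted Norrin that signals through a Frizzled receptor, stood at 6.36, 6.14 and 6.12 at 0 h, at 4.97, 4.58 and 5.15 at 4 h and at 4.74, 4.62 and 5.44 at 6 h. It fell by 1.29 ± 0.18 (adjusted p = 0.00122), a 2.44-fold drop, and was 0.29 below 0 h at 2 h and 0.60 below at 24 h. HAS2, the enzyme that makes hyaluronan, stood at 8.63, 8.50 and 8.48, then at 6.44, 6.82 and 7.76, then at 7.67, 7.11 and 7.92, a fall of 1.25 ± 0.21 (adjusted p = 0.00340). HAS2 was already 1.01 below 0 h at 2 h. No later array of either gene overlapped 0 h, and in HAS2 the Thiamet-G arrays had moved least at both times.

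SLC14A1, a urea transporter, stood at 5.94, 5.65 and 5.99 at 0 h, at 5.33, 5.14 and 5.06 at 4 h and at 4.90, 4.79 and 5.27 at 6 h, a fall of 0.78 ± 0.093 (adjusted p = 0.000658). It was lower still at 24 h, by 1.30. HS3ST1, which sulfates heparan sulfate, fell by 0.59 ± 0.059 (adjusted p = 0.000278), from 9.99, 10.00 and 10.13 to 9.14, 9.27 and 9.54 at 4 h and 9.45, 9.62 and 9.67 at 6 h. It was back within 0.17 of 0 h at 24 h. Its other probe sets changed by -0.25 and -0.03. OTUB2, a deubiquitinase, fell by 0.62 ± 0.077 (adjusted p = 0.000684) and DEPP1, a FOXO-regulated stress protein, by 0.64 ± 0.092 (0.00152). The other probe set of DEPP1 changed by -0.14.

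FGF5, a growth factor that ends the hair growth phase, fell by 0.55 ± 0.077 (adjusted p = 0.00125), and its other probe sets changed by -0.52 and -0.29. FGF5 was lower at 4 h, by 0.71, than at 6 h, by 0.39, though the test between the times did not call it (adjusted p = 0.113). RPGRIP1L, a protein of the ciliary base, fell by 0.60 ± 0.10 (adjusted p = 0.00488). RAD52, a recombination protein, fell by 0.56 ± 0.098 (0.00503). The other probe sets of RAD52 changed by -0.29 and 0.18, and its adjusted p was 0.0511 without both poorer arrays of 4 h.

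ST6GALNAC5, a sialyltransferase, fell by 0.68 ± 0.12 (adjusted p = 0.00610), and its 6 h level was lowest with DMSO (5.82, beside 6.33 and 6.41). COL15A1, a collagen of basement membranes, fell by 0.63 ± 0.11 (0.00567). Without the DMSO array of 0 h the adjusted p was 0.0800 for ST6GALNAC5 and 0.0731 for COL15A1, and it was 0.0689 for COL15A1 without both poorer arrays of 4 h. GDF15, a stress cytokine, fell by 0.64 ± 0.14 (adjusted p = 0.0189), but its other probe set changed by 0.11, so no single direction can be given for GDF15. Its call was also lost without the DMSO or 5SGlcNAc array of 0 h (adjusted p = 0.116 for each) or without both poorer arrays of 4 h (0.110).

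**Figure D2:**
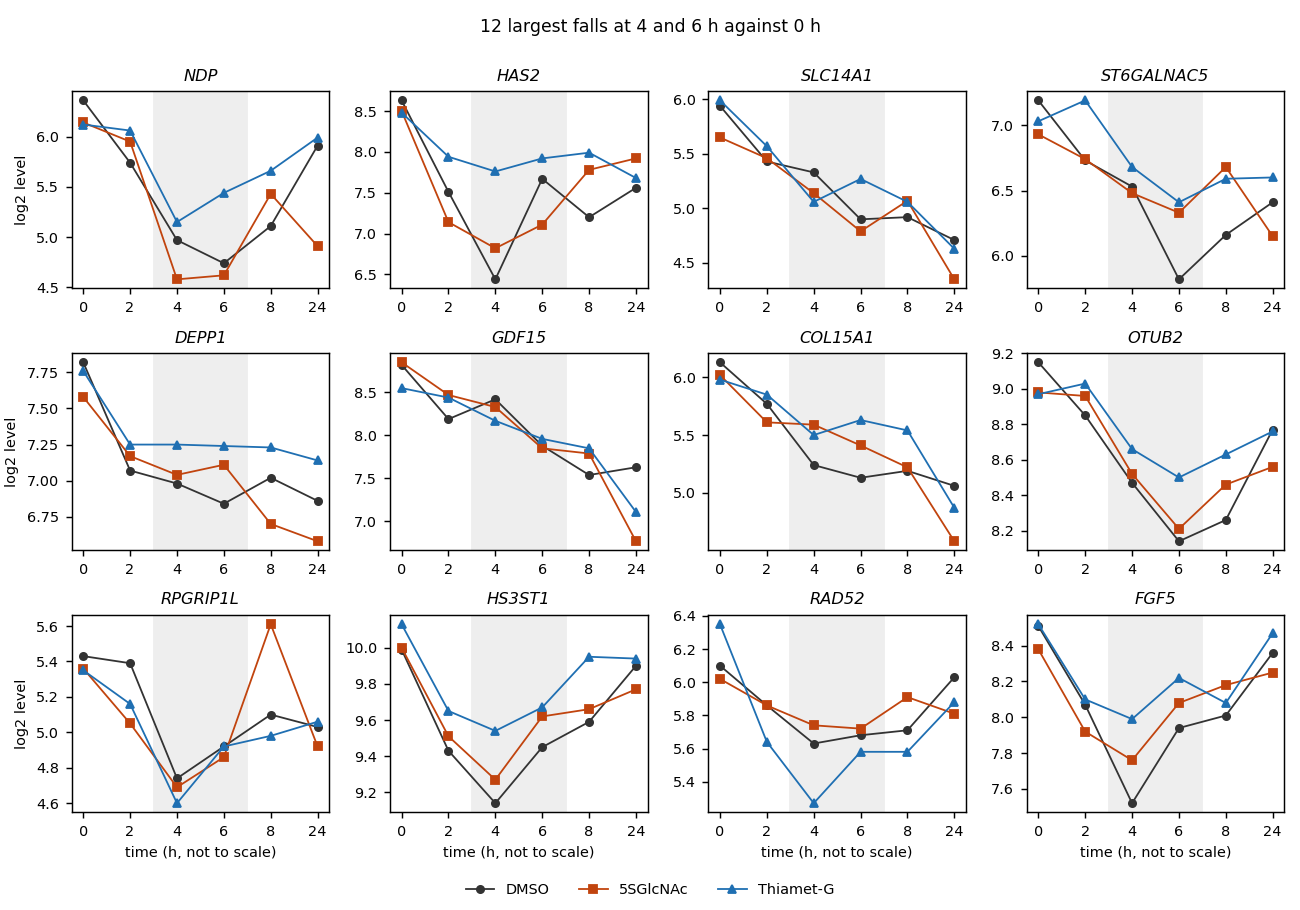
Log2 levels of the 12 largest falls at 0, 2, 4, 6, 8 and 24 h, 1 point per array and 1 line per treatment series, with 4 and 6 h shaded. NDP, HAS2 and HS3ST1 are lowest on average at 4 h and turn back, while COL15A1, GDF15, DEPP1 and SLC14A1 are lowest on average at 24 h.

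Genes of DNA replication and S phase that were called had all risen. Of 34 measured, 5 rose and none fell, beside 2.18% and 2.47% of all genes, with a median of 0.12 beside 0.010 for all genes. CCNE2, the cyclin that starts S phase, stood at 10.69, 10.67 and 10.70 at 0 h, at 10.82, 11.04 and 11.19 at 4 h and at 11.44, 11.21 and 11.12 at 6 h. It rose by 0.45 ± 0.083 (adjusted p = 0.00692), though not without the DMSO array of 0 h (0.0561). ORC6, a subunit of the origin recognition complex, rose by 0.33 ± 0.048 (adjusted p = 0.00157). It stood at 10.65, 10.70 and 10.64 at 0 h and at 10.95 to 11.02 in the 6 later arrays, a narrow and separate range.

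ORC1, another subunit, rose by 0.27 (adjusted p = 0.0160), PCNA, the replication clamp, by 0.27 (0.0307) and TYMS, thymidylate synthase, by 0.18 (0.0235). The calls of all 3 were lost without the DMSO array of 0 h (adjusted p = 0.107, 0.147 and 0.111) or the 5SGlcNAc array of 0 h (0.0844, 0.0622 and 0.0776), and those of PCNA and TYMS without some others. PCNA kept its call in 2 of the 9 fits that each left out 1 array and TYMS in 4. The count of S phase genes that rose was 2 without both poorer arrays of 4 h, and 1, 2 and 3 without the array of 0 h from DMSO, 5SGlcNAc and Thiamet-G. It was 3 without the 5SGlcNAc array of 4 h or the DMSO array of 6 h and 4 or 5 without any other. In the list of mitosis and G2/M, 1 of 35 fell (CDC20, an activator of the anaphase complex, by 0.21, adjusted p = 0.0406) and none rose. The call of CDC20 was kept in 1 of the 9 fits with an array left out, the one without the DMSO array of 4 h.

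Some luminal epithelium markers fell. Of 15, 4 fell and none rose, beside 2.47% and 2.18% of all genes, with a median of -0.15. KRT19, a keratin, stood at 11.10, 11.05 and 11.13 at 0 h, at 10.84, 10.80 and 10.68 at 4 h and at 10.37, 10.53 and 10.60 at 6 h, a fall of 0.46 ± 0.073 (adjusted p = 0.00281). CLDN4, a tight junction protein, fell by 0.28 ± 0.055 (0.00971) and GATA3, a luminal transcription factor, by 0.30 ± 0.064 (0.0154). CDH1, the epithelial cadherin, fell by 0.55 ± 0.075 (adjusted p = 0.00122) on a dim probe set of 5.89 to 6.14 at 0 h, while its other probe set changed by 0.25. CDH1 therefore has no single direction here. CLDN4 lost its call without any 1 array of 0 h (adjusted p of 0.0514 to 0.0619), and GATA3 without the DMSO or 5SGlcNAc array of 0 h (0.131 and 0.0776). Without both poorer arrays of 4 h, 2 of the list fell, as also without the DMSO or the 5SGlcNAc array of 0 h. EPCAM changed by 0.08 (adjusted p = 0.485) and KRT18 by -0.14 (0.174).

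In the circadian clock list 3 of 18 fell and 1 rose, beside 2.47% and 2.18% of all genes, with a median of -0.02. BMAL1, the activator at the centre of the clock, stood at 8.34, 8.26 and 8.35 at 0 h, at 7.97, 7.90 and 7.86 at 4 h and at 7.82, 7.91 and 7.71 at 6 h. It fell by 0.45 ± 0.065 (adjusted p = 0.00152), its other probe set changed by -0.42, and its mean at 24 h was back at 0 h, with a difference of 0.00. NPAS2 and CLOCK, its partners, fell by 0.37 (adjusted p = 0.0120) and 0.23 (0.0339). The other probe set of CLOCK changed by 0.10, and the mean of both by -0.06 (adjusted p = 0.574), so CLOCK has no single direction here. HLF, an output factor, rose by 0.33 (0.0295) on a dim probe set with a mean of 4.30 at 0 h. PER2, a repressor of the clock, changed by 0.17 (adjusted p = 0.265). NPAS2 and HLF lost their calls without the DMSO array of 0 h (adjusted p = 0.0985 and 0.114) or the 5SGlcNAc array of 0 h (0.0987 and 0.203). Without either of these arrays 1 of the list fell. CLOCK kept its call in 2 of the 9 fits that each left out 1 array and HLF in 4.

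Genes of sterol supply gave 3 rises and no fall among the 16 of the cholesterol list (median 0.07), beside 2.18% and 2.47% of all genes. INSIG1, which holds the sterol sensor in the endoplasmic reticulum, stood at 9.38, 9.39 and 9.31 at 0 h, at 9.97, 9.99 and 9.90 at 4 h and at 9.78, 9.68 and 9.67 at 6 h. It rose by 0.47 ± 0.066 (adjusted p = 0.00125). The difference at 4 h was 0.59, 0.60 and 0.59 in the 3 series. IDI1 and SC5D, enzymes of the pathway, rose by 0.36 each (adjusted p = 0.00967 and 0.00798), and lost the call without the DMSO array of 0 h (0.0709 and 0.0732) or the 5SGlcNAc array of 0 h (0.0847 and 0.0632). HMGCS1, an early enzyme of the pathway, changed by 0.27 ± 0.098 (adjusted p = 0.153).

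CCN2, a secreted matricellular protein driven by YAP and SRF, rose by 0.35 ± 0.048 (adjusted p = 0.00122), from 13.06 to 13.10 at 0 h to 13.56, 13.49 and 13.40 at 4 h and 13.50, 13.40 and 13.28 at 6 h. It was the only rise among 16 of that list, where FHL2, a LIM domain cofactor, fell by 0.20 (adjusted p = 0.0177). FHL2 lost its call without any 1 array of 0 h (0.0648 to 0.115). CCN1, a close relative of CCN2, changed by 0.09 (adjusted p = 0.369). In the list of MYC targets and ribosome biogenesis, none of 19 rose and 2 fell, with a median of -0.11. RRS1, an assembly factor of the large ribosomal subunit, fell by 0.35 ± 0.050 (adjusted p = 0.00152). NOP16, a nucleolar protein, fell by 0.20 (0.0283) and kept its call in 2 of the 9 fits that each left out 1 array. Of 21 splicing regulators, 2 rose and 2 fell (median 0.06). RSRC2 rose by 0.27 ± 0.047 (adjusted p = 0.00451), and SRSF7, an SR protein, fell by 0.35 ± 0.054 (0.00211), though its other probe sets changed by -0.62, 0.33 and 0.00. HNRNPA1 rose by 0.40 (0.0475) and SRSF1 fell by 0.21 (0.0318), and each kept its call in 2 of the 9 fits that each left out 1 array. CTH, which makes cysteine, rose by 0.38 ± 0.053 (adjusted p = 0.00124), the only call among 29 ATF4 targets. SLC30A1, a zinc exporter, rose by 0.32 ± 0.056 (0.00466), the only call among 10 genes of the metallothionein list, and its adjusted p was 0.0501 without the DMSO array of 0 h.

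The title of the series names NRF2 and KEAP1, and neither transcript was called at these times. NFE2L2, the gene of NRF2, stood at 11.74, 11.78 and 11.66 at 0 h and at 11.67 to 11.92 later, a change of 0.07 ± 0.053 (adjusted p = 0.590). KEAP1, which targets NRF2 for degradation, changed by -0.12 ± 0.050 (0.221). Of 36 NRF2 targets 2 rose and 1 fell, beside 2.18% and 2.47% of all genes, with a median of 0.04. GCLC, which starts glutathione synthesis, rose by 0.41 ± 0.074 (adjusted p = 0.00621), and its other probe set changed by 0.43. It missed the threshold without the 5SGlcNAc array of 0 h (0.0590). MAFF, counted above, was the other rise, and ABCC1, an efflux pump, fell by 0.20 (adjusted p = 0.0338) and kept its call in 1 of the 9 fits that each left out 1 array. NQO1, a quinone reductase, changed by 0.18 ± 0.064 (adjusted p = 0.138) and HMOX1, which degrades haem, by 0.14 ± 0.32 (0.873). The SE of HMOX1 also takes in the arrays of 24 h, where it stood at 8.73, 11.04 and 8.55. Its differences from 0 h were 0.34, 0.24 and 0.13 at 4 h and 0.00, 0.17 and -0.03 at 6 h.

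None of 8 genes that supply, add or remove O-GlcNAc was called, with a median of 0.03. OGT changed by -0.02 ± 0.16 (adjusted p = 0.978). OGA stood at 10.38, 10.44 and 10.36 at 0 h and at 10.98, 10.36 and 11.05 at 6 h, so that the DMSO and Thiamet-G arrays were above their 0 h arrays and the 5SGlcNAc array was not. Its mean change was 0.33 ± 0.30 (adjusted p = 0.632). None of 27 cytosolic ribosomal proteins and 28 respiratory chain subunits was called, with medians of 0.00 and -0.01. RPS18, of the small ribosomal subunit, stayed between 15.02 and 15.08 in all 9 arrays.

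The remaining lists had 1 to 3 called members each, beside 2.18% of all genes that rose and 2.47% that fell. Counts this small describe single genes and not the lists. Among 32 matrix and mesenchymal genes 1 rose and 2 fell (median -0.02). PLAUR, the urokinase receptor, rose by 0.31 (adjusted p = 0.0183), and the falls were HAS2 and CDH1. Among 23 hypoxia genes 2 rose and 1 fell (-0.02). ADM, a vasodilator peptide, rose by 0.33 (0.0317), BNIP3L, a mitophagy receptor, by 0.18 (0.0420), and VEGFA, an angiogenic factor, fell by 0.37 (0.0221). Among 11 glucocorticoid targets 2 rose, SGK1 by 0.22 (0.0262) and GADD45B by 0.30 (0.0447), and 1, the receptor gene NR3C1, fell by 0.18 (0.0421), with a median of 0.14. Among 8 glucose-responsive genes 2 rose, TXNIP by 0.25 (0.0406) and SLC2A3 by 0.32 (0.0187), and 1 fell, MLX, a partner of MondoA, by 0.25 (0.00775), with a median of -0.03. Of 10 EGF family genes HBEGF, a ligand of EGFR, was the only call, with a rise of 0.24 (0.0238) and a list median of -0.07. Apart from HAS2 and CDH1, each gene named here lost its call without the DMSO array of 0 h, with an adjusted p of 0.151 for PLAUR, 0.114 for ADM, 0.144 for BNIP3L, 0.147 for VEGFA, 0.156 for SGK1, 0.136 for GADD45B, 0.203 for NR3C1, 0.198 for TXNIP, 0.101 for SLC2A3, 0.0985 for MLX and 0.116 for HBEGF. Averaging the probe sets of each gene also ended the calls of HBEGF, NR3C1, SLC2A3 and TXNIP here and, among members of other lists, those of FOSL2, HLF, ID2, MAFF, NOP16, SC5D, SRSF1, SRSF7 and TYMS (adjusted p from 0.0544 for ID2 to 0.227 for SRSF1).

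**Figure D3:**
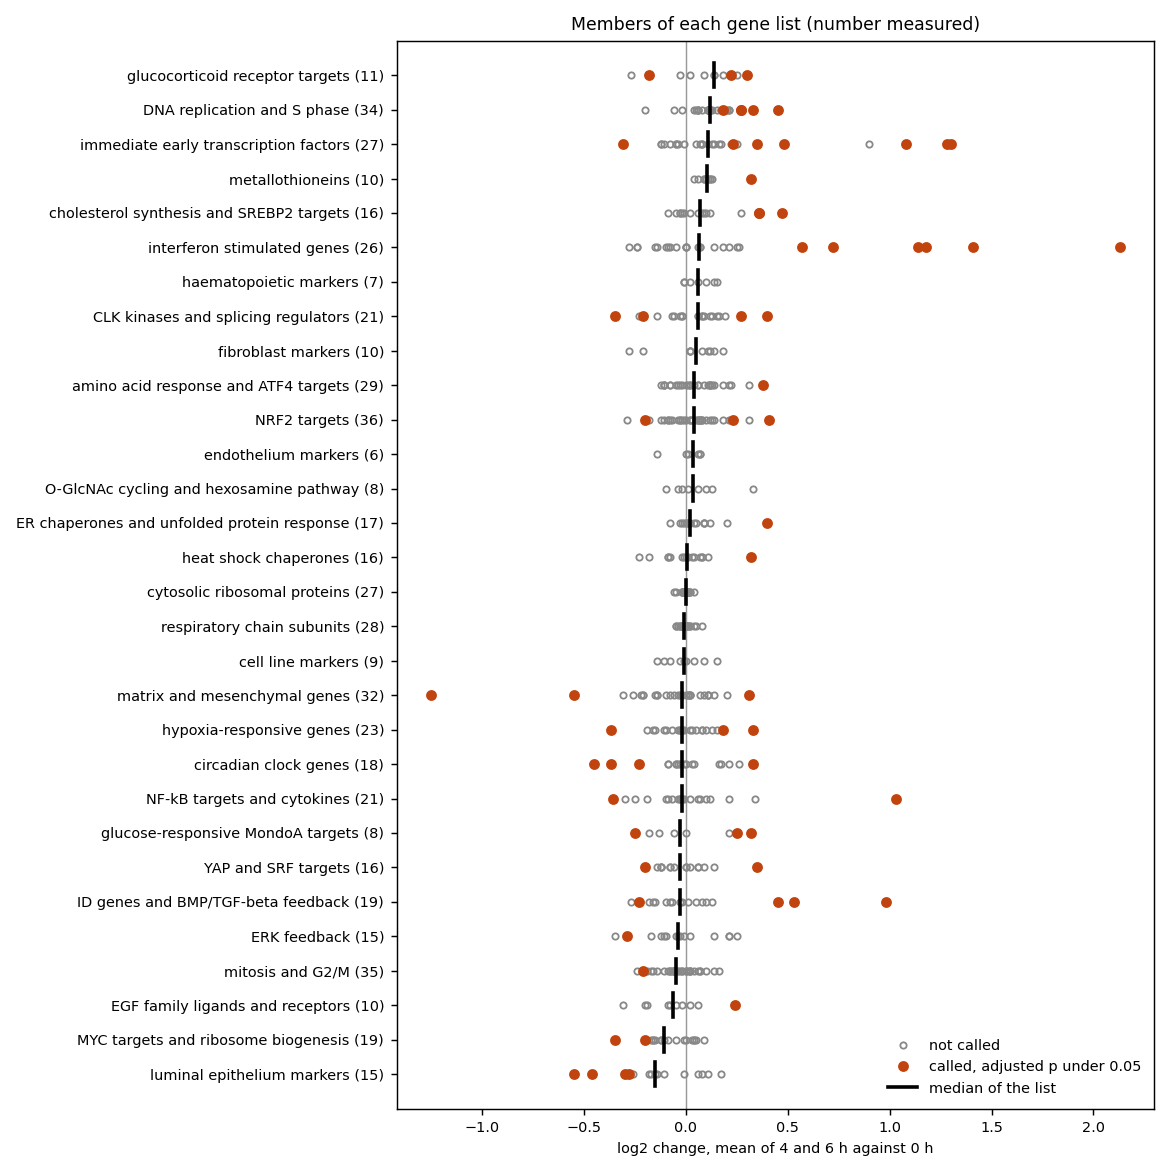
Log2 change at 4 and 6 h against 0 h of every measured member of 30 gene lists, 1 point per gene, filled where the adjusted p is under 0.05, with a bar at each list's median. List medians lie between -0.15 (luminal epithelium) and 0.14 (glucocorticoid targets), and the points far to the right belong to the interferon, immediate early, NF-kB and ID lists.

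The times were also tested one by one. At 4 h 392 genes were called, 159 higher (1.33%) and 233 lower (1.95%), and at 6 h 537, 272 higher (2.27%) and 265 lower (2.22%). The 2 comparisons share their 0 h arrays, so each is given on its own values. Of the 12 largest rises all 12 were called at 4 h and 11 at 6 h, the exception being ATF3 (0.91, adjusted p = 0.114). Of the 12 largest falls 10 were called at 4 h and 12 at 6 h. GDF15 (-0.43, adjusted p = 0.183) and ST6GALNAC5 (-0.49, 0.0805) were not called at 4 h. The 4 h count was 125 without the DMSO array of 4 h and 186 without the 5SGlcNAc array of 4 h. It was 81, 135 and 250 without the arrays of 0 h, and 11 with the ACTB covariate. Without both poorer arrays only the 5SGlcNAc array is left at 4 h, so no count is given. The 6 h count was 97, 236 and 259 without the arrays of 6 h and 113, 255 and 244 without those of 0 h, but 441 without both poorer arrays of 4 h and 362 with the ACTB covariate.

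Some list members were called at 1 time alone, and those named in this paragraph were chosen after their values were seen. In the interferon list 6 rose and 1 fell at each time. The falls were IFIT5, a relative of IFIT1, by 0.40 at 4 h (adjusted p = 0.0153) and PSMB9, a subunit of the immunoproteasome, by 0.37 at 6 h (0.0396). Of the markers of the line EPHA2, a receptor kinase, rose by 0.19 at 6 h (adjusted p = 0.0401). Without both poorer arrays the 4 h difference of IFIT5 was -0.38, with only the 5SGlcNAc array left at 4 h. The call of IFIT5 was lost without the DMSO or 5SGlcNAc array of 0 h (adjusted p of 0.104 and 0.0848) or of 4 h (0.0894 and 0.0519). It was also lost with the covariate (0.247). PSMB9 and EPHA2 kept theirs without the DMSO or Thiamet-G array of 4 h and lost it without any other of the 9 (adjusted p of 0.0529 to 0.208 and 0.0593 to 0.161). In the S phase list 2 rose at 4 h and 6 at 6 h, and in the immediate early list 6 and 3, while the test between the times called no member of either.

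Other genes were named from 1 time. At 4 h E2F5, a repressive E2F factor, fell by 0.77 (adjusted p = 0.000766), from 9.54, 9.45 and 9.48 to 8.55, 8.63 and 8.99, and at 6 h the difference was -0.29 (0.0821). Its other probe set changed by -0.05 over both times. SOCS2, a feedback inhibitor of cytokine receptors, fell by 0.66 at 4 h (0.00246) and 0.43 at 6 h (0.0210). Without both poorer arrays, with only the 5SGlcNAc array left at 4 h, the 4 h difference was -0.79 in E2F5 and -0.64 in SOCS2. TNFSF15, a TNF family ligand, fell by 0.67 at 4 h (adjusted p = 0.0147) but kept that call in 5 of the 9 fits that each left out 1 array (0.0581 to 0.107 in the others). At 6 h TNS3, a focal adhesion protein, fell by 0.59 (adjusted p = 0.00578), from 11.12, 11.15 and 11.15 to 10.49, 10.38 and 10.77. LGR5, an R-spondin receptor, fell by 0.65 at 6 h (0.0111), though not without the 5SGlcNAc array of 0 h or the DMSO array of 6 h (0.0539 to 0.0756). The other probe set of LGR5 changed by 0.06 over both times, and the mean of both at 6 h by -0.34 (adjusted p = 0.0918). CXCL11, an interferon-induced chemokine, rose by 0.81 at 6 h (0.0203) and kept that call in 5 of the 9 fits (0.0623 to 0.0991 in the others). Its levels were dim, at 3.95, 4.16 and 3.77 at 0 h and 4.38, 4.80 and 5.12 at 6 h. The other probe set of CXCL11 changed by 0.22 over both times.

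Set directly against 4 h, 6 h had 74 called genes, 61 higher (0.510%) and 13 lower (0.109%). The largest were TAF9B, a TFIID subunit, by 0.82, SCARB2, a lysosomal receptor, by 0.75, TLR4, the endotoxin receptor, by 0.71, SGPP1, a sphingosine phosphatase, by 0.66, CREBZF, a leucine zipper factor, by 0.62, and EXOC5, an exocyst subunit, by 0.58. TAF9B stood at 6.08, 6.74 and 6.55 at 4 h and at 7.60, 7.05 and 7.15 at 6 h. Its largest step was that of the DMSO series, whose 4 h array had the highest ACTB value. NEDD9, a scaffold of focal adhesions, fell by 0.71, from 8.65, 8.45 and 8.16 to 7.87, 7.50 and 7.76. MAGEB4 fell by 0.49, CTSZ, a cathepsin, by 0.45, RNASE2 by 0.41, ARSL by 0.40 and INHBE, an activin subunit, by 0.39. Adjusted p for these 12 lay between 0.0270 (NEDD9) and 0.0499 (CTSZ).

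None of the 74 was called with the ACTB covariate. The ACTB value was 0.89 to 1.64 at 4 h and 0.42 to 0.61 at 6 h. The covariate therefore runs with the contrast and cannot tell integrity from time. Without both poorer arrays only the 5SGlcNAc array was left at 4 h, so sizes alone are given. The difference was then 0.41 in TAF9B, 0.53 in SCARB2 and -0.82 in NEDD9. Averaging each gene's probe sets gave 0.20 in TAF9B (adjusted p = 0.173), 0.25 in SCARB2 (0.142), 0.19 in CREBZF (0.0951), -0.21 in CTSZ (0.200) and -0.29 in MAGEB4 (0.120). With the covariate it was 0.21 in TAF9B, 0.31 in SCARB2 and -0.62 in NEDD9. The count was 0 without the DMSO or Thiamet-G array of 4 h or of 6 h, 20 and 13 without the 5SGlcNAc arrays of 4 h and 6 h, and 17, 17 and 28 without the arrays of 0 h. After quantile normalization 27 genes were called, with 70.4% of them higher beside 82.4% of the 74. The part of RNA integrity in these differences was not tested.

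**Figure D4:**
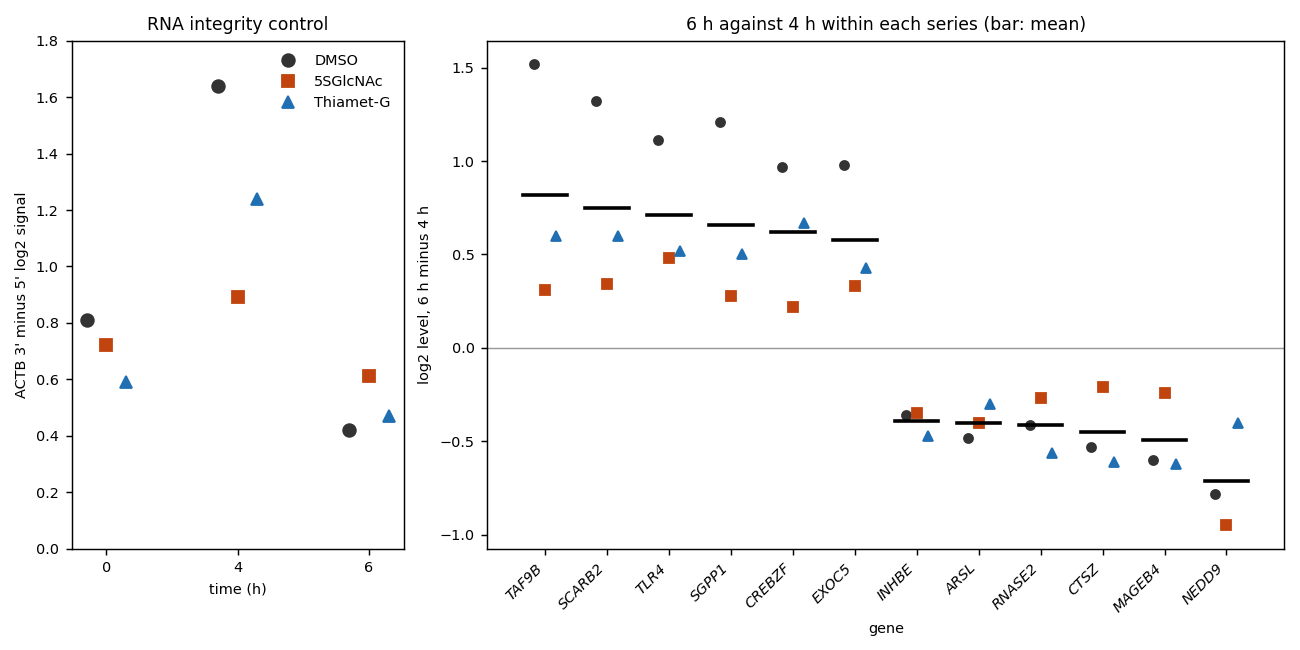
Left, the 3' minus 5' log2 signal of ACTB in each of the 9 arrays, which is 1.64 with DMSO and 1.24 with Thiamet-G at 4 h and 0.42 to 0.89 in the others. Right, the 6 h minus 4 h difference of log2 level in each series for the 12 named genes, with a bar at the mean, where the DMSO series gives the largest step in all 6 genes that were higher at 6 h.

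The last comparison asked whether the change from 0 h differed between DMSO, 5SGlcNAc and Thiamet-G. No gene was called (0%) in limma's F test, and 255 had an unadjusted p under 0.05. That is fewer than chance alone would give at this threshold. The fit left 6 residual degrees of freedom, so the lack of calls does not show that the series changed alike. Each series has 1 array of 0 h, so a difference there enters both later differences. The smallest p belonged to BNC1, SERPINA10 and MICOS10P1, at dim levels of 3.67 to 6.44. Among the 12 largest rises, all 12 had their largest 4 h difference with DMSO and their smallest with Thiamet-G. At 6 h 10 of the 12 had their largest difference with 5SGlcNAc, and 8 had their smallest with Thiamet-G. For HSPA6 the 6 h difference was 2.09 with DMSO, 2.66 with 5SGlcNAc and 1.07 with Thiamet-G. For IFIT1 it was 2.05, 2.71 and 2.19, and the test of the difference gave an adjusted p = 1 for both. The unadjusted p of HSPA6 in that F test was 0.0100. For ATF3 the 4 h differences were 2.37, 1.93 and 0.80. The ACTB value at 4 h was 1.64, 0.89 and 1.24, and its part in these orders was not tested. These orders describe genes chosen for their size in the same arrays.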

How the data were processed

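RNA of MDA-MB-231 cells was hybridised to 27 Affymetrix arrays. Each deposited table holds 1 log2 value per probe set. The submitters' processing notes name RMA and no version. RMA equalises the arrays processed together, so a change of most genes one way can be hidden. The 9 arrays of 48 h were processed apart and are not used here. Of 22277 probe sets, 19064 had 1 gene symbol, 1043 several, 2108 none and 62 were controls. A gene took its probe set of highest mean, which gave 11963 genes.

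limma 3.58.1 in R 4.3.3 was fitted to the 18 arrays of 0 to 24 h, with time as a factor and treatment series as a block. Tests were two-sided with Benjamini-Hochberg adjustment at 0.05, and an F test compared the series. The scripts were tested on simulated data.

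The rule for named genes took the 12 strongest called genes each way whose 6 differences shared a sign, 6 in each direction at 6 h against 4 h, 3 in each direction at each time alone, the 3 smallest p for the difference between series, up to 4 called members of each list, and OGT, OGA, NFE2L2, KEAP1, HMOX1 and NQO1. One gene list and 3 of its members are not reported here. Further list members were named after their values were seen. Members and lists were chosen with earlier results of these data known. Alternatives covered normalization, dim genes, probe sets, the variance model, array weights, the block, ACTB as a covariate, and arrays or series left out.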

Additional observations from a re-analysis of the deposited data

Results flagged for a closer look

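Among 84 sets of 6 differences from the 0 h array of the same series, 5 had a difference that stood far from the other 5. Chance picks out about 1 set in 20 where the 6 values are independent. Here the differences of a series share its 0 h array and the genes were chosen as called, so that rate does not hold. CDC20 was at -0.36, CTH at 0.54 and ST6GALNAC5 at -1.36 in the DMSO series at 6 h. LGR5 was at -0.08 in the DMSO series at 4 h, the difference nearest to 0 among its 6. CXCL11 was at 1.35 in the Thiamet-G series at 6 h.

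A direct test found 6 h different from 4 h in 74 genes. Of those named, TAF9B differed by 0.82, SCARB2 by 0.75, TLR4 by 0.71, SGPP1 by 0.66, CREBZF by 0.62 and EXOC5 by 0.58. On the lower side NEDD9 differed by -0.71, MAGEB4 by -0.49, CTSZ by -0.45, RNASE2 by -0.41, ARSL by -0.40 and INHBE by -0.39. Without both 4 h arrays of poorer integrity the adjusted p of these 12 lay between 0.413 and 0.950 in limma.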

How the results depend on the processing

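Each number here is a count of genes called by limma. For 4 and 6 h against 0 h, array weights gave 1493, the ACTB covariate 365 and the fit without both poorer 4 h arrays 185, beside 557. With 1 array left out the range was 107 to 529, and without the DMSO, 5SGlcNAc or Thiamet-G series it was 5, 32 and 182. For 4 h alone, array weights gave 1359, the 9 arrays of 0, 4 and 6 h 245, the covariate 11, and the fit without both arrays 19. The range was 81 to 363, and 0, 4 and 149 without each series. For 6 h alone, leaving out dim genes gave 870, the trend and robust variance model 852 and array weights 1207. The range was 97 to 544, and 3, 22 and 104 without each series. For 6 h against 4 h, quantile normalization gave 27, median centring 6 (83.3% higher), leaving out dim genes 189, the trend and robust model 208, array weights 505 and the fit without the series block 31. The 9 arrays alone, the covariate and the fits without each series gave 0. The range was 0 to 28. The cause of these shifts was not tested. The difference between series gave 0 under every alternative run, also without each series in turn, which was added after seeing the data. There the fit without the series block was not run, and without its 0 h array a series has no change to compare.

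Of 92 called genes followed over 23 alternatives, 4 (IFIT1, GCH1, HS3ST1 and TNFSF9) were called in all, and 41 were called without each of the 9 arrays. Without probe sets ending in _x_at, GDF15 turned to 0.11 (adjusted p = 0.576). The treatment series, as a block, paired each later array with its own 0 h array, and without that block 445 genes were called. By replicate number no paired analysis was possible because the labels number replicates only on the 48 h arrays, which are not used here. Each time has 3 arrays, which limits the precision.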

Other observations

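Other genes that interferon or NF-kB are known to induce were looked up after their values were seen. HERC5, the ligase that attaches ISG15, stood at 9.83, 9.76 and 9.80 at 0 h, at 10.54, 10.42 and 10.04 at 4 h and at 10.32, 10.67 and 10.39 at 6 h, a rise of 0.60 ± 0.089 (limma, adjusted p = 0.00168). CXCL10, a chemokine, rose by 0.38 ± 0.066 (adjusted p = 0.00434), with its smallest 4 h difference, 0.11, in the Thiamet-G series.

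TNFSF9, a ligand of the TNF family, stood at 7.37, 7.54 and 7.36 at 0 h, at 8.51, 8.35 and 7.85 at 4 h and at 8.05, 8.17 and 7.78 at 6 h, a rise of 0.69 ± 0.075 (adjusted p = 0.000329). PELI1, a ubiquitin ligase of receptor signalling, rose by 0.65 ± 0.097 (adjusted p = 0.00176). Its 4 h differences of 0.76, 0.80 and 0.73 were alike in the 3 series. In all 4 genes the later arrays did not overlap 0 h, as in 10.7% of all genes.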
